A study of Mus musculus with 6 samples.

Results

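Protocadherins are the largest family of cadherin adhesion proteins, and 31 of their genes could be read on 6 arrays of RNA labelled as colon crypt of C57BL/6J mice. The 31 are all probe sets whose symbol in the platform annotation starts with Pcdh, out of 19505 genes with a symbol. Each had 1 probe set, so no choice between probe sets of a gene was needed. They comprise 20 genes of the beta cluster, Pcdhb1 to Pcdhb20, and 11 non-clustered genes. A RefSeq gene table holds 70 such symbols, 14 of the alpha cluster, 22 of the beta cluster, 22 of the gamma cluster and 12 outside the clusters. The alpha and gamma genes, Pcdhb21, Pcdhb22 and Pcdh15 had no probe set under their symbol and were not analysed here.

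The study set 3 arrays of control mice, titled PBS, against 3 arrays of mice gavaged for 7 days with MBELN, exosome-like nanoparticles from mulberry bark. The labels give no genotype beyond the strain, and no age, sex or pooling of the mice. They do not say that each array came from its own mouse, so any p here reflects spread among 6 samples that may be technical, and the number of arrays limits precision. Values are the deposited log2 values, and differences are MBELN minus PBS on that scale.

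Protocadherins are single-pass membrane proteins that bind the same protein on a neighbouring cell through extracellular cadherin repeats. The clustered genes lie in tandem on one chromosome, and single neurons use different subsets of them, a choice that depends on promoter methylation, the insulator protein CTCF and cohesin, and that lets a neuron tell its own branches from those of others. The non-clustered genes are expressed mainly in brain in regional patterns, and a few also act in epithelia, heart and blood vessels.

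The arrays of 1 group did not share the markers of 1 tissue, and this precedes every result below. The marker lists were written with earlier results of these data known. The median of 12 gut epithelium markers was 17.30, 16.07 and 17.64 in PBS 1, 2 and 3, whereas the MBELN arrays gave 5.07, 3.83 and 5.24. The keratin gene Krt8, for example, read 19.87 to 19.89 in PBS and 3.82 to 8.05 in MBELN. In MBELN 1 and MBELN 3, all 12 heart muscle markers lay above the level of receptor probe sets, with medians of 18.43 and 18.76, against 3.72 to 4.27 in the other 4 arrays. In MBELN 2, all 12 neuron markers did, with a median of 15.54, against 3.38 to 4.14 elsewhere. Snap25, a protein of synaptic vesicle fusion, read 19.73 there and 3.13 to 7.86 in the other arrays. Astrocyte and oligodendrocyte markers were also above the level in MBELN 2, 8 of 8 and 7 of 7. The receptor level was taken on each array as the value that 95% of 1414 probe sets for olfactory or vomeronasal receptors did not exceed. It serves as the limit of a dim signal and lay between 3.99 and 4.44. Within PBS, small intestine markers reached medians of 18.80 (PBS 1) and 18.86 (PBS 3) against 3.99 (PBS 2). Of 8 colon markers, 8 lay above the receptor level in PBS 2, 3 in PBS 1, 4 in PBS 3 and 2 or 3 in each MBELN array. The mucin gene Muc2 was high in every PBS array, 18.18 to 19.31, and read 4.17 to 7.95 in MBELN. In such bulk RNA, fewer cells of a type and less RNA per cell cannot be told apart. Whether each array holds RNA of the labelled colon crypt was not tested. A rise or fall named below is therefore a difference between these arrays, not a change shown within crypt.

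**Figure D1:**
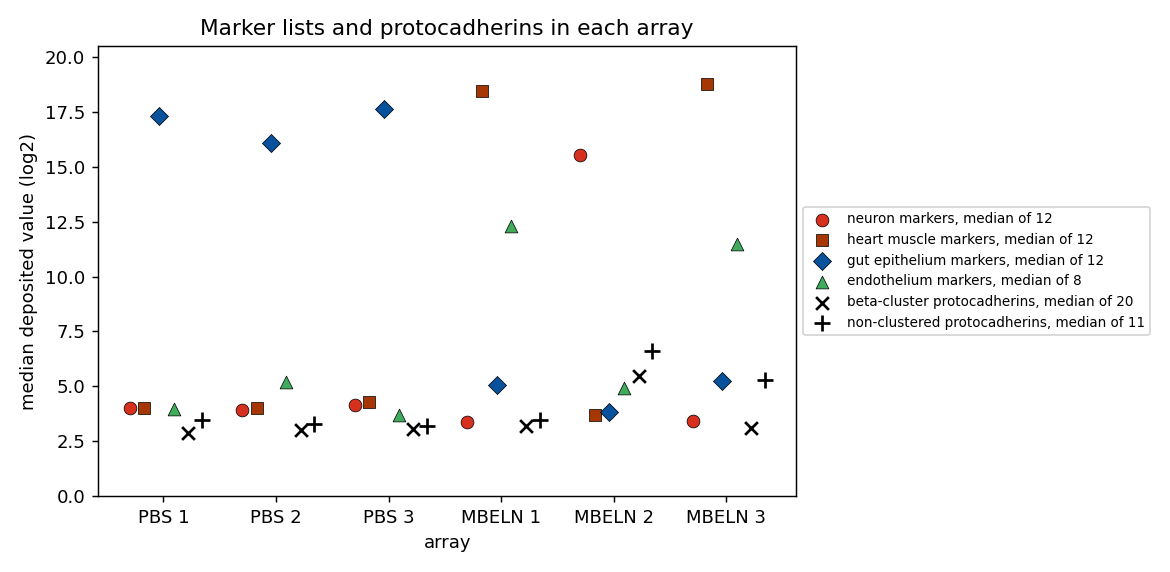
Median log2 value of 4 marker lists (coloured symbols) and of the beta-cluster and non-clustered protocadherins (black symbols) in each of the 6 arrays. The neuron median reaches 15.54 in MBELN 2, the array in which both protocadherin medians are highest, at 5.49 and 6.59.

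Protocadherin signal was concentrated in MBELN 2. There, 25 of the 31 genes lay above the receptor level, against 5, 5 and 3 in PBS 1, 2 and 3, 5 in MBELN 1 and 8 in MBELN 3. The 18 genes above it in MBELN 2 and in no other array were Pcdh8, Pcdh9, Pcdh10, Pcdh11x and 14 of the beta cluster. This pattern was found in 5.93% of all 22206 transcript probe sets. Values under the receptor level have no order, so gaps were taken after every value had been raised to 4.44, the highest receptor level of the 6 arrays. So measured, MBELN 2 lay above each other array for 22 of the 31 genes, against 20.1% of all probe sets, and over 1 log2 unit above for 18, against 12.4%. For 4 genes, Pcdh9, Pcdh10, Pcdh17 and Pcdhb15, the gap was over 3 units, against 5.81%. The median of MBELN 2 minus the PBS mean was 1.22 over the 31 genes and 0 over all probe sets on that raised scale. For the mean of MBELN 1 and MBELN 3 it was 0 in both. These are descriptions of 1 array, with no replicate behind them and no test. Neuron markers moved with them, with 12 of 12 above the receptor level in MBELN 2, 4 in MBELN 1, 4 in MBELN 3 and between 5 and 7 in PBS. The log2 of their summed linear signal ran from 8.82 to 9.12 in PBS and from 9.47 to 21.56 in MBELN. Their part in the protocadherin values was not tested.

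In the comparison of the 2 groups of 3, 1 member rose, Pcdh7, and none fell. This is 1 of 31 genes past an adjusted p of 0.05 (limma, Benjamini-Hochberg over all probe sets), where 5.18% of all probe sets passed, 1.42% higher and 3.76% lower. At an unadjusted p under 0.05, 3 members were higher, Pcdh7, Pcdhb17 and Pcdhb20, and 0 lower, against 7.21% of probe sets higher and 10.6% lower. With values raised to 4.44, the MBELN mean was above the PBS mean for 23 of the 31 genes, against 37.7% of all probe sets, equal for 7 and below for 1, Pcdh1. The median difference on that scale was 0.41 over the members and 0 over all probe sets. The 3 MBELN values all lay above the 3 PBS values for 3 genes, Pcdh7, Pcdh19 and Pcdhb20, against 7.43% of probe sets, and all below for 0, against 10.9%.

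**Figure D2:**
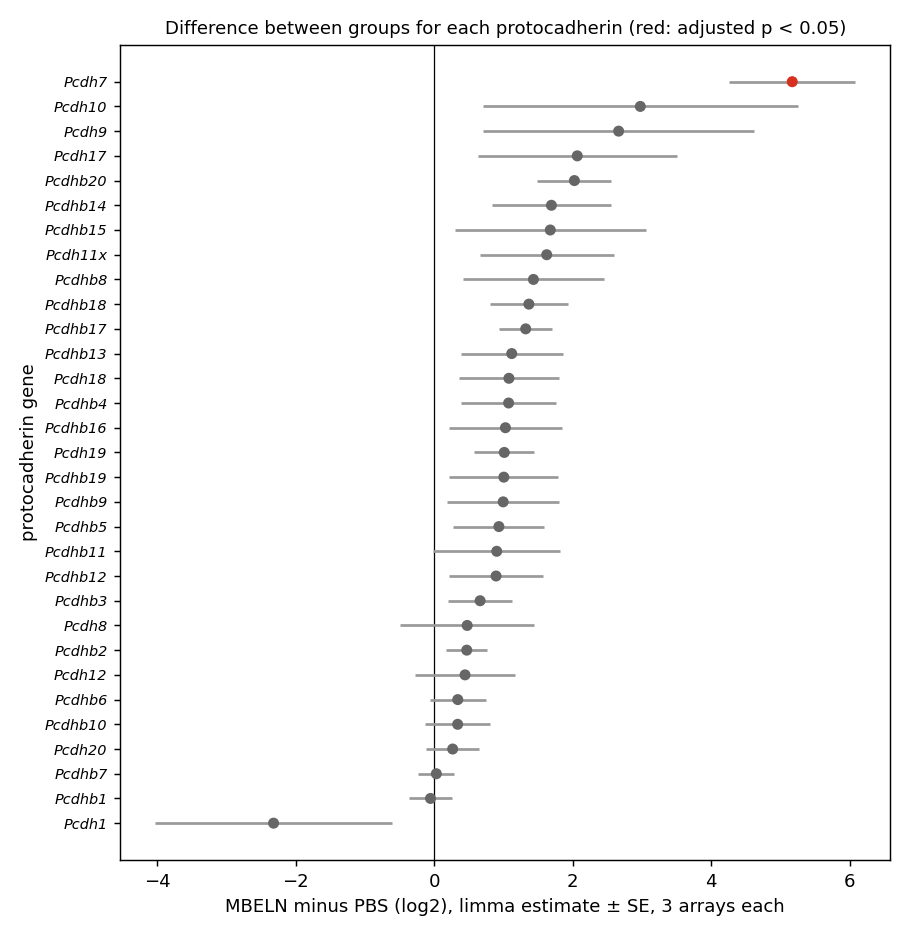
MBELN minus PBS difference (log2) of each of the 31 protocadherins, as limma estimate with its SE from 3 arrays a group. Pcdh7, in red, is the single gene past an adjusted p of 0.05. Differences of genes whose PBS values lie under the receptor level, such as Pcdh10 and Pcdh9, are estimates against background and have no order.

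Pcdh7 is a delta-1 protocadherin, also called brain-heart protocadherin after the tissues it was found in. It read 4.64, 6.20 and 5.84 in PBS 1, 2 and 3, whereas MBELN 1, 2 and 3 read 9.78, 12.60 and 9.79. All 6 values lay above the receptor level, the groups did not overlap, and MBELN 2 was higher than MBELN 1 and MBELN 3. The mean was 5.56 ± 0.82 in PBS and 10.73 ± 1.62 in MBELN (SD, n = 3). The difference of 5.17 ± 0.91 (SE) is a 36.0-fold rise (limma, adjusted p = 0.0371). The call ended when any array but MBELN 2 was left out (limma, adjusted p = 0.157 without PBS 1, 0.0600 without PBS 2, 0.144 without PBS 3, 0.0896 without MBELN 1 and 0.0922 without MBELN 3), with differences between 4.71 and 5.64. Without MBELN 2 the difference was 4.23 ± 0.52 (limma, adjusted p = 0.00493), and without PBS 2 and MBELN 2 it was 4.55 ± 0.45 (limma, adjusted p = 0.000321).

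Hybridisation control probe sets, which report spiked-in RNA, were brighter in PBS 2, MBELN 1 and MBELN 3 (means of 9.79 to 10.09) than in PBS 1, PBS 3 and MBELN 2 (8.43 to 8.98). Marker lists divided each group in the same way. Small intestine markers set PBS 2 apart from PBS 1 and PBS 3. Neuron and heart muscle markers set MBELN 2 apart from MBELN 1 and MBELN 3. Brightness and these markers therefore cannot be told apart, in a block or within its levels. With the array's control brightness as a block, the Pcdh7 difference was 5.48 ± 0.95 (limma, adjusted p = 0.0440). It was 3.59 within the brighter arrays, PBS 2 against MBELN 1 and MBELN 3, and 7.36 within the dimmer arrays, PBS 1 and PBS 3 against MBELN 2. Heart muscle markers moved with the Pcdh7 values of MBELN 1 and MBELN 3 and neuron markers with that of MBELN 2, and their part was not tested. For heart muscle, the log2 summed signal was 8.70 to 11.28 in PBS and 11.33 to 22.30 in MBELN, with 5, 5 and 7 of 12 markers above the receptor level in PBS 1, 2 and 3 and 4 in MBELN 2.

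The upstream sequence of Pcdh7 is shown with those of Pcdh10, Pcdh9 and Pcdh17, the 3 non-clustered genes with the widest gap between MBELN 2 and the other arrays, so that the promoter of the gene that rose can be set beside theirs. Each is the 250 bases before a RefSeq start site in GRCm38.p6, and capitals mark CCAAT on either strand (ATTGG on the strand shown).
Pcdh7, chr5:57717831-57718080, plus strand: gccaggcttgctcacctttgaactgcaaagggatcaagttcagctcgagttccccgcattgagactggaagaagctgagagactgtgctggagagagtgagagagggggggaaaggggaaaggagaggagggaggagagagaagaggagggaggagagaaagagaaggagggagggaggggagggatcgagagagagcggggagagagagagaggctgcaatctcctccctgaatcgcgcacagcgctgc
Pcdh10, chr3:45378148-45378397, plus strand: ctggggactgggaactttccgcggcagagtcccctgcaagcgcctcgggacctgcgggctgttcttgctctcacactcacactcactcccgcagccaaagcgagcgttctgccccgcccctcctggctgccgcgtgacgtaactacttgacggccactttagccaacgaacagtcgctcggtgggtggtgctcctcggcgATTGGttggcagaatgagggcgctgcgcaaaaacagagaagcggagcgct
Pcdh9, chr14:93890680-93890929, minus strand: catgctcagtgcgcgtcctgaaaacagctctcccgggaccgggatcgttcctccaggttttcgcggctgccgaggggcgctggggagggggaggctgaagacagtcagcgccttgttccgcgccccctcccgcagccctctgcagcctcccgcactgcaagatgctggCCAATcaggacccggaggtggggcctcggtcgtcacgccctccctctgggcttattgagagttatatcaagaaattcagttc
Pcdh17, chr14:84443313-84443562, plus strand: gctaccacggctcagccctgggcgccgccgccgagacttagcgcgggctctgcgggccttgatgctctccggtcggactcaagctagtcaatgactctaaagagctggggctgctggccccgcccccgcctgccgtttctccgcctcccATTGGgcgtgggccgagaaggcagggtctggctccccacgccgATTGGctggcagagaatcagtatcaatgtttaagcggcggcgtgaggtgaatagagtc
A CCAAT match stands in the windows of Pcdh10, Pcdh9 and Pcdh17 and not in that of Pcdh7. This motif was chosen after the sequences had been read. Windows were given for 8 of the 31 members, and 7 of the 8 hold CCAAT, against 33.8% of 32851 windows of the same length. The GC box GGGCGG stands in 4 of the 8 (32.7% of all windows), TGACG in 2 (17.8%), CANNTG in 1 (66.2%), TATAAA in 1 (12.4%) and TGACGTCA, which contains TGACG, in 0 (1.55%), each searched on both strands. Pcdh7 has 7 CpG dinucleotides in its window, and 46.3% of all windows have at least that many. Pcdh10 has 22, Pcdh17 has 21 and Pcdh9 has 18, counts that 14.8%, 16.3% and 21.7% of windows reach. A match is a description of letters and not of a bound site.

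Pcdh1, a delta-1 protocadherin of epithelia and brain, was lower in some MBELN arrays and higher in another. It read 10.30, 11.12 and 10.40 in PBS 1, 2 and 3, 6.55 and 6.04 in MBELN 1 and MBELN 3, and 12.27 in MBELN 2. It lay above the receptor level on every array, and the MBELN values fell on both sides of the PBS values. The group difference of -2.32 ± 1.71 did not pass the threshold (limma, adjusted p = 0.552). Without MBELN 2 the difference was -4.31 ± 0.38 (limma, adjusted p = 0.00166), and without PBS 2 and MBELN 2 it was -4.06 ± 0.34 (limma, adjusted p = 0.000144). Blocking on control brightness gave -1.45. The difference was -4.83 within the brighter arrays, where PBS 2 is the lone PBS array. Within the dimmer arrays, where MBELN 2 is the lone MBELN array, it had the opposite sign, at 1.92. Gut epithelium markers were low in all 3 MBELN arrays, 7, 2 and 9 of 12 above the receptor level, and the log2 of their summed signal was 21.65 to 21.95 in PBS and 7.59 to 10.78 in MBELN. Neuron markers had a median of 15.54 in MBELN 2, where Pcdh1 was highest, and of 3.38 to 4.14 in the other arrays. The part of both lists in the Pcdh1 values was not tested.

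Pcdh9 and Pcdh11x are the other measured delta-1 members, both expressed in brain. Pcdh9 read 2.94, 2.69 and 3.25 in PBS, and 2.64, 10.14 and 4.09 in MBELN 1, 2 and 3. The 5 values other than that of MBELN 2 were under the receptor level and have no order. MBELN 2 stood at least 52.2-fold above each other array, counted from the highest receptor level. Pcdh11x, on the X chromosome, read 2.60, 3.0 and 2.69 in PBS and 3.45, 6.59 and 3.10 in MBELN. Again the 5 values other than that of MBELN 2 were under the receptor level. Differences were 2.66 ± 1.95 and 1.62 ± 0.97 (limma, adjusted p = 0.550 and 0.462).

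Among the delta-2 protocadherins, which bind the WAVE actin regulator or other partners inside the cell, Pcdh10 showed the widest gap between arrays. It read 2.04, 2.53 and 2.57 in PBS, 2.64 and 2.69 in MBELN 1 and MBELN 3, and 10.73 in MBELN 2. MBELN 2 was at least 78.3-fold above each other array, and the others all lay under the receptor level. Pcdh17, which guides axons and presynaptic assembly, read 4.58, 5.41 and 3.85 in PBS and 4.84, 9.91 and 5.27 in MBELN. MBELN 2 was 22.7-fold above the highest other array, which was PBS 2, and the groups overlapped. Their differences were 2.97 ± 2.28 and 2.06 ± 1.44 (limma, adjusted p = 0.565 and 0.530).

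Pcdh19, an X-linked gene whose loss in people causes a female-limited epilepsy, lay above the receptor level on every array. It read 4.68, 4.72 and 4.49 in PBS and 4.82, 6.28 and 5.82 in MBELN. The 3 PBS values and that of MBELN 1 were close to 4.44, the highest receptor level of the 6 arrays. The groups did not overlap, with PBS 2 and MBELN 1 the nearest pair. The difference was 1.01 ± 0.44 (limma, adjusted p = 0.309). Pcdh8, an activity-regulated protocadherin of synapses, read 3.46, 2.71 and 3.19 in PBS and 2.77, 5.77 and 2.25 in MBELN, above the receptor level in MBELN 2 alone (limma, adjusted p = 0.838).

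Pcdh18 and Pcdh12 were the non-clustered genes that peaked outside MBELN 2. Pcdh18 read 3.62, 4.62 and 2.78 in PBS and 4.0, 4.27 and 5.98 in MBELN, highest in MBELN 3 with overlapping groups (limma, adjusted p = 0.517). Pcdh12 is a protocadherin of endothelial cells and read 3.23, 3.27 and 3.21 in PBS and 3.08, 2.69 and 5.27 in MBELN (limma, adjusted p = 0.788). MBELN 3 was its single value above the receptor level. Endothelium markers were high in MBELN 1 as well, with a median of 12.29, against 11.49 in MBELN 3, 4.94 in MBELN 2 and 3.69 to 5.22 in PBS. In MBELN 1 and in MBELN 3, all 8 lay above the receptor level. Pcdh20 lay under the level on every array, between 2.20 and 3.27, so no difference can be read from it.

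**Figure D3:**
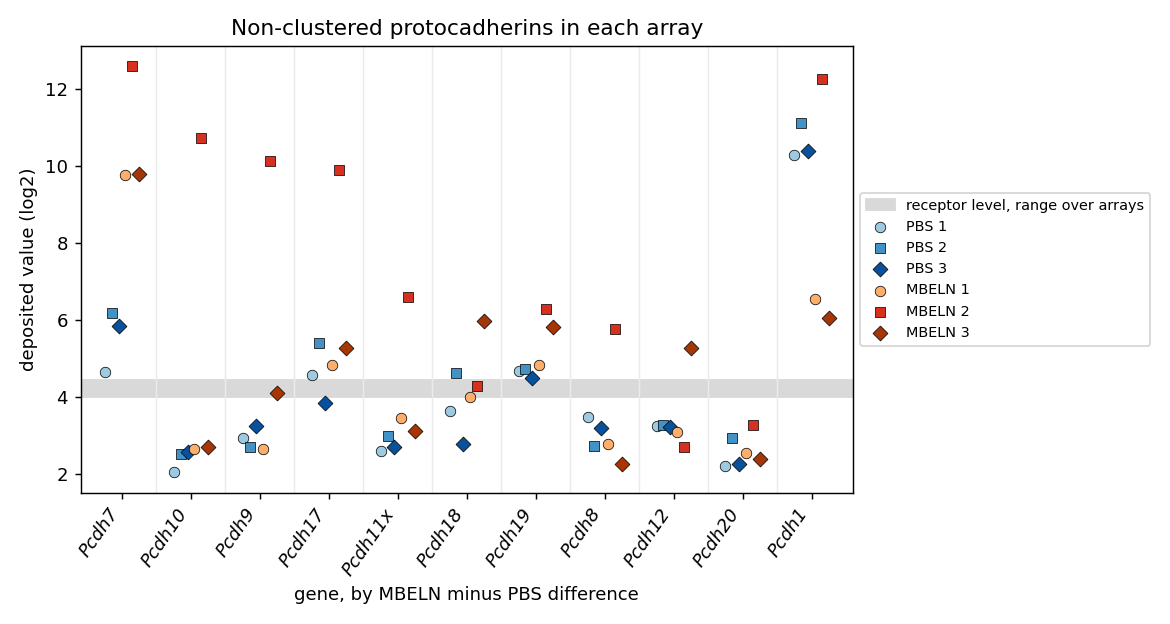
Deposited log2 value of the 11 non-clustered protocadherins in each array, PBS in blue and MBELN in orange to red, with the range of the receptor level in grey. MBELN 2 (red squares) stands alone for Pcdh10, Pcdh9 and Pcdh17, while all 3 MBELN arrays lie above the PBS arrays for Pcdh7.

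Beta-cluster genes each encode a whole protein in a single exon, without the constant exons that alpha and gamma genes share, so probe sets named for different members need not read a common exon. The members are close in sequence, however, and the probes' sequences were not used here, so signal shared between neighbours cannot be told apart from expression of each. In MBELN 2, 16 of the 20 lay above the receptor level. In the other arrays the counts were 1, 0 and 0 in PBS 1, 2 and 3, 1 in MBELN 1 and 2 in MBELN 3. The median of the 20 was 5.49 in MBELN 2 and between 2.90 and 3.18 in the other 5 arrays. Of the 20, 0 passed the threshold in either direction (limma), against 5.18% of all probe sets. At an unadjusted p under 0.05, 2 were higher and 0 lower, against 7.21% and 10.6% of all probe sets. The median difference was 0.36 with values raised to 4.44.

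The beta genes with the highest means over the arrays were Pcdhb20, Pcdhb14, Pcdhb8 and Pcdhb17. Pcdhb20 read 4.20, 3.57 and 3.66 in PBS and 5.44, 6.90 and 5.17 in MBELN. It was the single beta gene above the receptor level in all 3 MBELN arrays, and 1 of its 3 PBS values, that of PBS 1, passed that level. Its groups did not overlap, with a difference of 2.02 ± 0.53 (limma, adjusted p = 0.115). Without MBELN 2 the difference was 1.49 ± 0.33 (limma, adjusted p = 0.0335). With any other single array left out it did not pass (limma, adjusted p = 0.160 to 0.345). Raising values to each array's receptor level gave 1.66 ± 0.50 (limma, adjusted p = 0.172). On the deposited values the difference was 1.37 ± 0.35 without PBS 2 and MBELN 2 (limma, adjusted p = 0.0243). Blocking on control brightness gave 2.35 ± 0.41 (limma, adjusted p = 0.0451). Within the brighter and the dimmer arrays it was 1.74 and 2.96, a split that the marker lists share. Beside these values, heart muscle medians were 18.43 and 18.76 in MBELN 1 and MBELN 3, and the neuron median 15.54 in MBELN 2.

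Pcdhb17 read 3.29, 3.27 and 3.42 in PBS and 3.99, 5.20 and 4.76 in MBELN. MBELN 2 and MBELN 3 lay above the receptor level, while MBELN 1 and the PBS arrays did not (limma, adjusted p = 0.141). Pcdhb14 read 3.82, 2.87 and 3.53 in PBS and 4.39, 6.96 and 3.95 in MBELN. Pcdhb8 read 3.48, 3.84 and 3.26 in PBS and 4.27, 7.23 and 3.37 in MBELN. Both passed the receptor level in MBELN 2 alone, at least 5.75-fold and 6.93-fold above the highest level of the other arrays (limma for the groups, adjusted p = 0.383 and 0.539). Pcdhb18 read 2.49, 3.57 and 3.42 in PBS and 3.78, 5.51 and 4.29 in MBELN (limma, adjusted p = 0.294).

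Pcdhb15 was named after its values had been seen, for the widest gap of the cluster. It read 2.94, 3.01 and 2.97 in PBS, 2.95 and 3.12 in MBELN 1 and MBELN 3, and 7.87 in MBELN 2, at least 10.8-fold above the others. At the other end, Pcdhb1, which starts the cluster, read 2.52 to 3.20 over the 6 arrays and Pcdhb7 read 2.38 to 2.81. With Pcdhb2 and Pcdhb6 they were the 4 beta genes under the receptor level on every array, so nothing can be read from their differences. They lie among genes that passed it in MBELN 2: Pcdhb3, Pcdhb4 and Pcdhb5 stand between Pcdhb2 and Pcdhb6, and Pcdhb8 follows Pcdhb7. From Pcdhb8 to Pcdhb20, all 13 genes passed that array's own level in MBELN 2, with values between 4.21 for Pcdhb10 and 7.87 for Pcdhb15. Of all probe sets, 55.2% passed that level there.

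**Figure D4:**
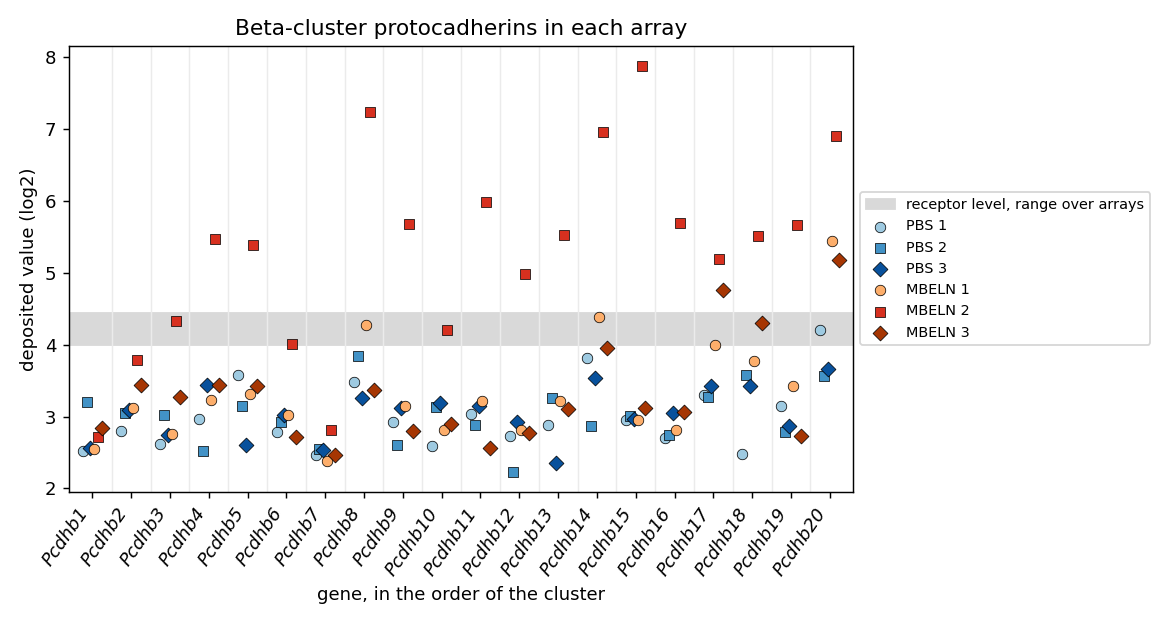
Deposited log2 value of the 20 beta-cluster genes in each array, in the order in which they follow each other in the cluster, with the range of the receptor level in grey. Red squares, MBELN 2, lie above the grey range from Pcdhb8 to Pcdhb20 except for Pcdhb10, which at 4.21 lies within it, while the other 5 arrays are mostly lower.

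Factors that act on clustered protocadherin promoters had 0 of 19 genes past the threshold (limma), against 5.18% of all probe sets. At an unadjusted p under 0.05, 7 were lower and 0 higher, where 10.6% of all probe sets were lower and 7.21% higher. The list, like the next 4, was written with earlier results of these data known. Ctcf, which loops active promoters to enhancers, read 11.34, 11.20 and 11.95 in PBS and 10.44, 10.71 and 9.64 in MBELN (limma, adjusted p = 0.191). Mean values in PBS and then MBELN were 11.65 ± 0.14 and 9.93 ± 0.87 for the cohesin subunit Stag2, and 12.36 ± 0.66 and 10.86 ± 0.26 for the cohesin loader Nipbl (SD, n = 3). The cohesin regulator Pds5a averaged 9.87 ± 0.54 and 8.38 ± 0.44 (limma for all 3, adjusted p = 0.129 to 0.135). Smchd1, a chromatin protein that silences the clusters, read 5.32 ± 0.32 in PBS and 4.48 ± 0.14 in MBELN (limma, adjusted p = 0.207). Its MBELN values lay near the receptor level, 2 of 3 above it, so background limits its difference. The list's median difference, which is that of Smchd1, was -0.84, against 0.09 over all probe sets.

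Of 15 measured partners inside the cell, 1 rose, 0 fell and 14 did not pass, with a median difference of 0.64. Over all probe sets, 1.42% were called higher and 3.76% lower. Fyn, a kinase bound by alpha protocadherins, rose from 6.41 ± 0.77 to 9.34 ± 0.58 (SD, n = 3), by 2.92 ± 0.53 (limma, adjusted p = 0.0390). That call ended without PBS 1, PBS 3, MBELN 1 or MBELN 3 (limma, adjusted p = 0.151, 0.169, 0.118 and 0.110) and when blocked on control brightness (adjusted p = 0.0683). Cyfip2, a subunit of the WAVE complex, read 6.17, 4.83 and 4.46 in PBS and 12.05, 18.94 and 11.83 in MBELN, all above and highest in MBELN 2 (limma, adjusted p = 0.0718). Abi1, another subunit of that complex, read 10.08 ± 0.27 and 7.88 ± 1.26, and Pdcd10, a binding partner of gamma protocadherins, 9.67 ± 0.64 and 7.60 ± 0.61 (limma, adjusted p = 0.160 and 0.0856).

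Of 7 partners on the cell surface, most of them partners of Pcdh15 in hair cells of the inner ear, 1 rose, 0 fell and 6 did not pass, with a median difference of 0.44. Of these 7, 1 lay above the receptor level in each array but MBELN 2, where 3 did. The other values were under that level and have no order, so the median difference cannot be read. The shares over all probe sets were 1.42% higher and 3.76% lower. Cdh2, the N-cadherin of neurons and heart muscle that binds with Pcdh19, read 5.06, 5.61 and 4.56 in PBS and 13.14, 10.25 and 13.98 in MBELN. It rose by 7.38 ± 1.01 (limma, adjusted p = 0.0168). Leaving out PBS 1, PBS 3, MBELN 1 or MBELN 3 ended the call (limma, adjusted p = 0.0931, 0.0914, 0.0807 and 0.0586). Nlgn1, a synaptic partner of gamma protocadherins, read 2.71 to 2.91 in PBS and 2.73, 11.12 and 3.57 in MBELN (limma, adjusted p = 0.560). Neuron and heart muscle markers moved with Fyn, Cyfip2 and Cdh2 as given for Pcdh7, and their part was not tested.

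The proteases that release protocadherins from the membrane had 2 of 6 measured genes lower, 0 higher and 4 not past the threshold, with a median difference of -1.49. Over all probe sets, 3.76% were called lower and 1.42% higher. Adam10, the sheddase, fell from 11.61 ± 0.28 to 9.51 ± 0.20 (SD, n = 3) (limma, adjusted p = 0.0171), and Ncstn, a gamma-secretase subunit, from 11.58 ± 0.39 to 8.30 ± 0.35 (SD, n = 3, adjusted p = 0.00758). The call of Adam10 ended without PBS 1, PBS 3, MBELN 1 or MBELN 3 (limma, adjusted p = 0.0634, 0.0928, 0.0695 and 0.0748), and that of Ncstn passed with each array left out. Gut epithelium markers were lower in MBELN as well, with medians of 3.83 to 5.24 against 16.07 to 17.64 in PBS, and their part was not tested.

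Among 12 measured relatives, the Fat, Dachsous, Celsr and cadherin-related genes, 3 fell, 0 rose and 9 did not pass, with a median difference of 0.35. Above the receptor level lay 5, 5 and 6 of them in PBS 1, 2 and 3. In MBELN 1, 2 and 3 it was 4, 7 and 4. The median difference thus includes values under that level, which have no order. The shares over all probe sets were 3.76% lower and 1.42% higher. Cdhr5 and Cdhr2, both once classed as protocadherins, join the tips of brush border microvilli. Cdhr5 read 18.05, 16.96 and 17.74 in PBS and 7.06, 3.16 and 5.24 in MBELN, a difference of -12.43 ± 1.01 (limma, adjusted p = 0.00328). Cdhr2 read 16.01, 12.03 and 16.25 in PBS and 3.99, 3.46 and 5.36 in MBELN, with PBS 2 the lowest of the PBS arrays (limma, adjusted p = 0.0113). Its call ended without PBS 1, PBS 3 or MBELN 1 (limma, adjusted p = 0.0637, 0.0594 and 0.0608). Fat1, a giant cadherin, fell from 12.63 ± 0.65 to 6.64 ± 0.23 (limma, SD, n = 3, adjusted p = 0.00215). Gut epithelium medians of 16.07 to 17.64 in PBS and 3.83 to 5.24 in MBELN moved with these falls, and their part was not tested.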

How the data were processed

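RNA from 6 samples was hybridised to single-colour arrays, 90 ng of each per the labels. The table the authors deposited holds log2 values of each probe set, a scale inferred from array medians between 4.38 and 4.55. Summarization, normalization and build are not stated in the labels or headers used here. The submitters' processing notes list Transcriptome Analysis Console 4.0. Of 28846 probe sets, 6640 array controls stayed out of every test. Symbols came from the platform annotation, and all 31 members matched by Entrez ID.

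Groups came from the titles. MBELN was compared with PBS by limma 3.58.1 (lmFit, eBayes, 4 residual degrees of freedom) over 22206 probe sets, two-sided, at an adjusted p of 0.05. The fit was also run on simulated data with independent noise. Those data lack the tissue marker differences within groups, so the run cannot show how the fit behaves under them. Members, lists and alternatives were chosen with earlier results of these data known. The text names all non-clustered members, the 4 highest and 2 lowest beta genes by mean, members past the threshold, the 4 with the smallest p, and up to 4 genes a list by p, with Ctcf and Smchd1. Folds, gaps and counts of direction run from the highest receptor level, a choice made after the data had been seen. The labels state no pairing, so none was used. Same-numbered samples did not deviate together (r = -0.03, -0.07 and -0.06). As arrays of 1 group differed in tissue markers, these r cannot show whether a pairing exists. Promoters came from RefSeq (GRCm38.p6).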

Additional observations from a re-analysis of the deposited data

How the results depend on the processing

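Of 330 differences of 18 named members under 19 alternatives, 281 kept direction and side of the threshold, 21 newly passed, 6 (all Pcdh7) no longer passed and 22 changed sign. Pcdh20, Pcdhb1 and Pcdhb7, under the receptor level on every array, are among the 18, so their kept or changed signs cannot be read. Pcdh8 and Pcdh12 passed that level on 1 array each. Fits within the brighter or the dimmer arrays, each with a lone array in 1 group, are among the 19. Pcdh7 stayed above 0 in each of the 19. With the replicate number as a block, a pairing that the labels do not state, Pcdh7 ended at 5.17 (limma, adjusted p = 0.0587). With that block 456 probe sets, 0 of them members, passed. The block also ended the calls of Fyn, Ncstn, Adam10 and Cdh2 (limma, adjusted p = 0.0561, 0.0566, 0.103 and 0.0859). Over all probe sets the count was 5757 with array weights, 1772 at an adjusted p under 0.1, 6769 without PBS 2 and MBELN 2, 4174 and 7234 within the brighter and the dimmer arrays, and 377 to 3738 with 1 array left out. Members called higher numbered 3 with array weights, 2 without PBS 2 and MBELN 2, 2 when blocked on hybridisation control brightness, 2 and 23 within the brighter and dimmer arrays, and 0 to 2 with 1 array left out. Members called lower numbered 1 with array weights, 1 without PBS 2 and MBELN 2, 1 within the brighter arrays (Pcdh1 each time), and 0 to 1 with 1 array left out. Over all 22206 probe sets, 2870 were called higher with array weights and 3354 without PBS 2 and MBELN 2. When blocked on hybridisation control brightness, 381 were. Called lower were 2887 with array weights and 3415 without PBS 2 and MBELN 2. Within-level fits hold a lone array of 1 group, assumed to vary like the others. Their counts therefore cannot be separated from what sets that lone array apart. The within-level settings and that without PBS 2 and MBELN 2 were chosen after the data had been seen.

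These differences changed sign. Within the dimmer arrays Pcdh1 was 1.92, Pcdh12 -0.53 and Pcdhb1 0.18. Within the brighter arrays Pcdh17 was -0.35, Pcdh20 -0.48, Pcdh8 -0.20, Pcdhb7 -0.13 and Pcdhb8 -0.018. With array weights Pcdh8 was -0.62, Pcdhb1 0.087 and Pcdhb7 -0.068. Without PBS 2 and MBELN 2 they were -0.82, 0.16 and -0.086. Pcdhb1 was 0.14 with values raised to the receptor level, and Pcdhb7 was -0.025 with median centring. With 1 array left out, Pcdh12 ran from -0.35 to 0.94, Pcdh20 from -0.0061 to 0.50, Pcdh8 from -0.61 to 1.15, Pcdhb1 from -0.17 to 0.17 and Pcdhb7 from -0.10 to 0.12. The cause of the other sign changes was not tested. Signal over background limits 18 of the 20 beta genes, which were under the receptor level in every array but MBELN 2; Pcdhb17 and Pcdhb20 are the exceptions.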
